A study of Mus musculus with 8 samples.

Results

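DNA repair and RecQ helicase genes were followed in 8 primary mouse osteosarcomas, malignant tumours of bone-forming cells. The set was a list of 30 symbols chosen by function, covering homologous recombination, Fanconi anaemia, RecQ helicase and mismatch repair genes and the damage kinases. Of these, 29 were read by at least 1 probe set with a single gene symbol, out of 19938 genes measured that way. Xrcc2 is not analysed here. A gene with several probe sets, which among these genes were Bard1 and Nbn, was represented by the one with the highest mean.

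All mice were of the strain C57Bl6. The model named shRNA OS (4 tumours) used a transgenic short hairpin RNA against p53, with the genotype label P53.1224. In the model named Cre:lox OS (4 tumours) both p53 alleles were floxed (P53fl/fl). In either model the Rb genotype was Rbfl/+, a single floxed allele, in 3 tumours and Rb+/+ in 1. The Rb+/+ tumours were shRNA OS 2 and Cre:lox OS 1. Tumours shRNA OS 1, 2 and 3 and Cre:lox OS 3 and 4 were tibial, shRNA OS 4 and Cre:lox OS 2 came from the humerus, and Cre:lox OS 1 came from the scapula. The labels give no age, no promoter for the hairpin, no Cre driver and no statement on whether floxed alleles were recombined in the tumours. Replicates were separate tumours, numbered here in accession order, so a number pairs no tumours.

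Homologous recombination repairs a DNA double-strand break by copying the intact sister chromatid. The MRN complex senses the break, the kinases ATM and ATR signal it, nucleases trim the ends, and BRCA1, PALB2 and BRCA2 prepare the exposed strand for pairing with the intact copy. Fanconi anaemia proteins unhook DNA crosslinks, and RecQ helicases unwind the recombination and replication structures that form on the way. Inherited loss of p53 or of RB predisposes people to osteosarcoma, as does inherited loss of RECQL4, and loss of WRN or BLM raises the risk of several cancers including this one.

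Values are the deposited log2 expression values, on which a step of 1 is a doubling of the measured signal. The level of 1 gene is not set against that of another, since probes differ in brightness. Differences were tested with limma across all 19938 genes with Benjamini-Hochberg adjustment, and a gene passed at an adjusted p under 0.05. The medians of the 8 arrays ran from 7.13 to 7.23. Array shRNA OS 2 stood apart, its correlation with the remaining arrays averaging 0.941 where those of the rest averaged 0.961 to 0.968. Values without it are given for the main results below. The mean log2 level of 7 osteoblast genes was 12.6 to 12.8 in shRNA OS and 12.0 to 12.8 in Cre:lox OS, on arrays whose values spanned 2.53 to 14.57. The mean of 9 macrophage genes was 8.78 to 10.3 in shRNA OS and 9.39 to 10.6 in Cre:lox OS, with 9 of 9 lower in shRNA OS, a median difference of -0.84 and 0 past the adjusted threshold. In skeletal muscle genes the difference was below 0 for 8 of 8, with a median of -0.81 and 0 past the threshold, and the list mean spanned 7.40 to 10.7 in shRNA OS and 7.96 to 10.5 in Cre:lox OS. The part of these cells in the results below was not tested, and in whole tumours fewer cells of a type and less RNA per cell cannot be told apart. The Rb gene itself, Rb1, was 9.54 and 9.34 in the Rb+/+ tumours and ran from 9.10 to 9.71 in the Rbfl/+ tumours, which overlap, and the p53 transcript is not analysed here.

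The promoters of the genes with the smallest p between the models, Bard1, Msh6 and Blm, are shown first, beside that of Rad54l, whose level correlated with the mitosis genes described below. Each runs from 250 bases before to 50 bases after the annotated start, 5′ to 3′ along the gene, from RefSeq on GRCm38.p6. Capitals mark matches to an E2F motif (TTTCGCGC, TTTGGCGC, TTTCCCGC or TTTGCCGC, either strand) or to the CCAAT box (CCAAT, or ATTGG for the other strand).
Bard1, chr1:71102923-71103222, minus strand: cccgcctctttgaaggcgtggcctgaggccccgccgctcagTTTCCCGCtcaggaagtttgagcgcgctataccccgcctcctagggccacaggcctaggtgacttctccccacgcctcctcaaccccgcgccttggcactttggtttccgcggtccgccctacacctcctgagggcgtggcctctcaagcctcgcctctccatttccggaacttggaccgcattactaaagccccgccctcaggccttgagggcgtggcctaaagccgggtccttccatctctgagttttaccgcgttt
Msh6, chr17:87974800-87975099, plus strand: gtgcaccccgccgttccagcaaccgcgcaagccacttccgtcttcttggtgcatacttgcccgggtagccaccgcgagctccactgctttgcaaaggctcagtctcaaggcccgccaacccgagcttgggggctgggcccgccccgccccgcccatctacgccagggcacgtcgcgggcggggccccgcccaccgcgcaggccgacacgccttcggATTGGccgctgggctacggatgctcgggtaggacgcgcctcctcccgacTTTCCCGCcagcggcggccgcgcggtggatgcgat
Blm, chr7:80534949-80535248, minus strand: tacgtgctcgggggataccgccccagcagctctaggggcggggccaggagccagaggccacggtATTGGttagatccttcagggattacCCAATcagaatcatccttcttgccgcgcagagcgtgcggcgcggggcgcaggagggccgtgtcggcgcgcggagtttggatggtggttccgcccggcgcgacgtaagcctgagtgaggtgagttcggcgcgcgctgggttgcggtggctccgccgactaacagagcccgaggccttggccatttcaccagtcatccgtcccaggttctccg
Rad54l, chr4:116123641-116123940, minus strand: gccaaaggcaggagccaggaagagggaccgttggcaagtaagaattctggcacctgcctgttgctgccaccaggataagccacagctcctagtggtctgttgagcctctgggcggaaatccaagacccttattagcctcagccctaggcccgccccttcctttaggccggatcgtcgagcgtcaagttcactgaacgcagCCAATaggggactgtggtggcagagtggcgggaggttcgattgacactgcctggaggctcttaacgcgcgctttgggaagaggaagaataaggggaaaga
The Bard1 window held an E2F match that begins 209 bases before the start. In Msh6 an E2F match began at base 16 counted from the start and a reversed CCAAT box 34 bases before it. The Blm window held a CCAAT box 161 bases and a reversed one 186 bases before the start, and no E2F match, while Rad54l held a CCAAT box 50 bases before it. A promoter entry was found for 22 of the 29 genes, of which 5 (22.7%) held an E2F match, namely Bard1, Brca2, Rad51c, Msh6 and Chek2, against 2.6% of the 27025 genes with an entry. The CCAAT box was in 14 of the 22 (63.6%), against 41.1% of all genes, and a GC box (GGGCGG, either strand) in 16 (72.7%), against 38.2%. These are matches of letters in a window and say nothing of binding in these tumours.

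Between the models, 0 of the 29 repair genes passed the adjusted threshold, where 4 of all genes did (0.0201%). Differences are shRNA OS minus Cre:lox OS throughout. At an unadjusted p under 0.05 there were 3 repair genes (Bard1, Msh6 and Blm) beside 9.63% of all genes. The difference was below 0 for 14 and above 0 for 15, against 48.1% of all genes below 0. Its median was 0.01, where it was 0.01 over all genes and -0.08 over all genes above the median level. For 19 of the 29 the difference was smaller than 0.25 in size. The models did not overlap in 2 repair genes, Bard1 and Msh6, both lower in shRNA OS, while 5.44% of all genes showed no overlap (3.44% lower in shRNA OS). The listed Fanconi and RecQ genes had positive differences (5 of 5 and 4 of 4). Those of the BRCA group, the strand-exchange group (Rad51b, Rad51c, Rad51d, Xrcc3, Rad52 and Rad54l) and the break-sensing group were mostly negative (4 of 5, 4 of 6 and 4 of 5). Outside the list, the RecQ helicase Recql was lower in shRNA OS (-0.26), as were 8 of 14 further Fanconi genes. The contrast between roles was not tested, and it moved with the tumours used. In the Rbfl/+ tumours alone, and with the mitosis score described below as a covariate, 3 of 5 BRCA genes and 3 of 5 break-sensing genes had positive differences. Without shRNA OS 1 or without Cre:lox OS 3, only 3 of 5 Fanconi genes did.

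**Figure D1:**
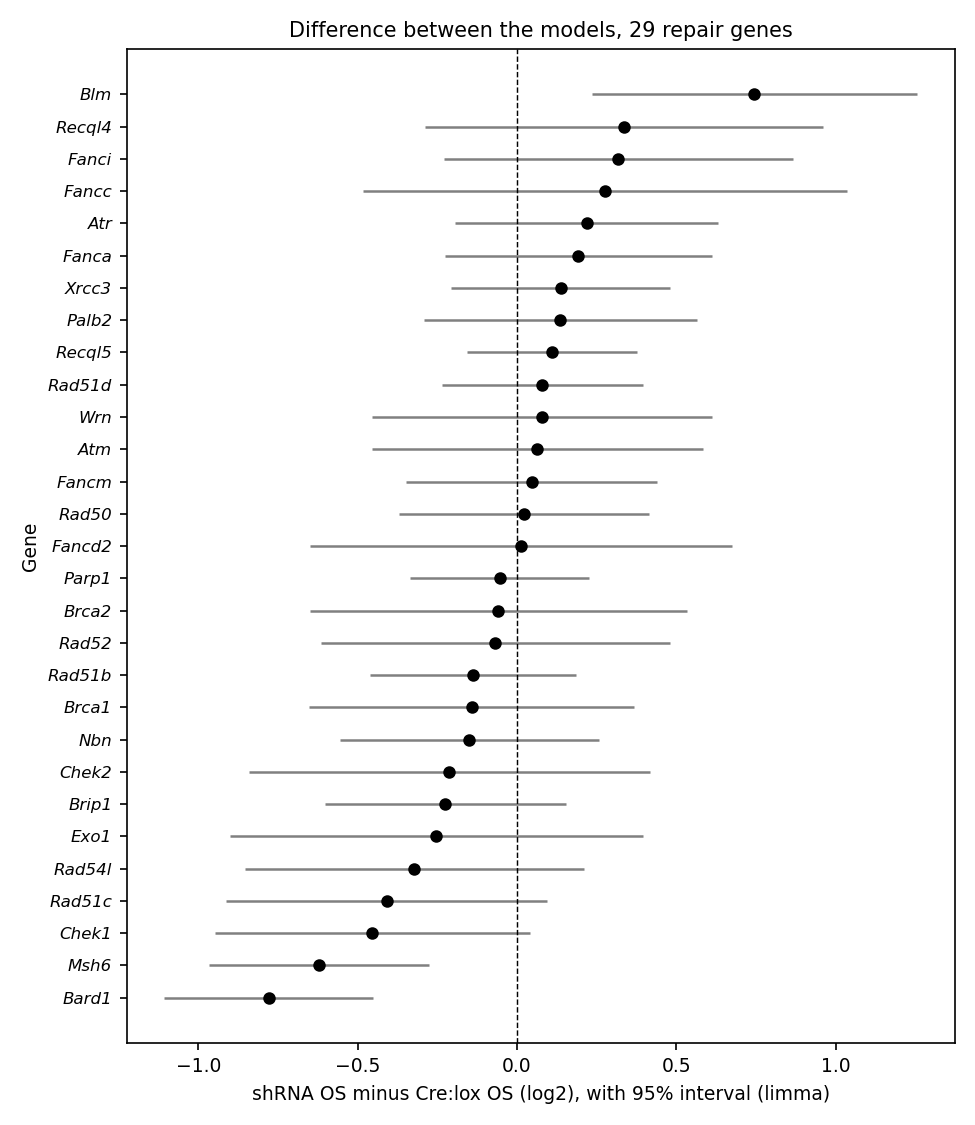
Difference in log2 expression between the models (shRNA OS minus Cre:lox OS, horizontal axis) for the 29 measured repair genes, ordered by size, with 95% intervals from limma as bars. The intervals of Blm, Msh6 and Bard1 lie to 1 side of 0, those of the other genes include it, and no gene passed the adjusted threshold.

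In the BRCA group, Bard1 encodes the partner with which BRCA1 forms a ubiquitin ligase. Its log2 level was 6.82, 6.77, 6.60 and 6.95 in shRNA OS 1 to 4 and 7.76, 7.65, 7.55 and 7.29 in Cre:lox OS 1 to 4. Each shRNA OS tumour lay below each Cre:lox OS tumour. The difference was -0.78 (SE 0.15, 95% interval -1.11 to -0.45), with an unadjusted p of 0.00038 and a limma adjusted p of 0.14. Of the 3 Bard1 probe sets, the other two differed by -0.48 and -0.08, and averaged over all 3 the difference was -0.45 (adjusted p 0.29). Without shRNA OS 2 it was -0.78 (adjusted p 0.24).

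Brca1 itself was 8.57, 7.94, 7.88 and 7.80 in shRNA OS 1 to 4 and 8.66, 8.28, 7.95 and 7.86 in Cre:lox OS 1 to 4. The highest tumour of each model, shRNA OS 1 and Cre:lox OS 1, stood above all others, and the models overlapped, with a difference of -0.14 (SE 0.23) that ran from -0.32 without shRNA OS 1 to 0.01 without Cre:lox OS 1. The interval over all 8 tumours, -0.65 to 0.37, leaves room for differences of either sign. Brca2, a mediator of recombination, was lowest in shRNA OS 2 at 7.42 and highest in shRNA OS 3 at 8.78, with a difference of -0.06 that turned to 0.20 without shRNA OS 2. Palb2, which bridges BRCA1 and BRCA2, differed by 0.14, and Brip1, a helicase that binds BRCA1, by -0.22.

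Rad51b, Rad51c, Rad51d and Xrcc3 encode accessory factors of strand exchange, RAD52 anneals strands, and RAD54 (Rad54l) is a motor protein that promotes strand invasion. Rad51c was 7.53, 6.92, 7.82 and 7.34 in shRNA OS 1 to 4 and 8.18, 7.99, 7.51 and 7.56 in Cre:lox OS 1 to 4. The lowest value was that of shRNA OS 2 and the highest that of Cre:lox OS 1, and the models overlapped. The difference was -0.41 (SE 0.23, adjusted p 0.61), and -0.25 without shRNA OS 2.

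Rad54l was 8.36, 7.43, 7.57 and 7.18 in shRNA OS 1 to 4 and 8.14, 8.03, 7.75 and 7.90 in Cre:lox OS 1 to 4. The tumours shRNA OS 2, 3 and 4 lay below all Cre:lox OS tumours, and shRNA OS 1 lay above them all. The difference was -0.32 (SE 0.24, adjusted p 0.74), and over the omissions of single tumours it ran from -0.56 without shRNA OS 1 to -0.17 without shRNA OS 4. Rad51b, Rad51d, Xrcc3 and Rad52 differed by -0.14, 0.08, 0.14 and -0.07, with 95% intervals that all included 0, and Rad52 turned to 0.15 without shRNA OS 2.

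Among the genes of break sensing, end processing and mismatch repair, Msh6 had the smallest p. MSH6 takes part in detecting single mismatched bases. Its level was 7.86, 7.58, 7.61 and 8.07 in shRNA OS 1 to 4 and 8.20, 8.59, 8.42 and 8.39 in Cre:lox OS 1 to 4. The models did not overlap, the closest pair being shRNA OS 4 and Cre:lox OS 1. The difference was -0.62 (SE 0.15, 95% interval -0.97 to -0.28; unadjusted p 0.0026, adjusted p 0.24), and -0.55 without shRNA OS 2 (adjusted p 0.34).

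The MRN members Rad50 and Nbn differed by 0.02 and -0.15. Rad50, the ATPase of the complex, lay between 9.08 and 9.75 in all tumours, and Nbn, its signalling subunit, between 8.64 and 9.41. Exo1, a nuclease that resects break ends and excises mismatched strands, differed by -0.25 with a wide interval (-0.90 to 0.40). Without shRNA OS 2, Nbn differed by -0.07 and Exo1 by -0.09. Parp1, which senses single-strand breaks, had the second smallest SD of the 29 genes (0.11 over the 8 tumours), lay between 9.10 and 9.40, and differed by -0.05.

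The damage kinases fall into the sensors ATM and ATR and the checkpoint kinases CHK1 and CHK2 that they activate. Chek1 was 8.79, 8.24, 8.86 and 8.62 in shRNA OS 1 to 4 and 9.33, 9.44, 9.01 and 8.55 in Cre:lox OS 1 to 4. Cre:lox OS 1, 2 and 3 were above all shRNA OS tumours, and Cre:lox OS 4 lay below 3 of them. The difference was -0.45 (SE 0.22, adjusted p 0.56).

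Chek2 was 8.04, 6.90, 8.0 and 7.65 in shRNA OS 1 to 4 and 8.08, 8.05, 7.28 and 8.03 in Cre:lox OS 1 to 4. One tumour of each model was low, shRNA OS 2 and Cre:lox OS 3, and the models overlapped. Cre:lox OS 3 was the only tumour of any repair gene to pass Dixon's criterion for a gap within its model, which 5.53% of all genes passed in Cre:lox OS and 7.14% in shRNA OS. The difference of -0.21 (SE 0.28) turned to 0.04 without shRNA OS 2. Atm and Atr differed by 0.06 and 0.22, with intervals of -0.45 to 0.58 and -0.19 to 0.63, and Atm by 0.26 without shRNA OS 2.

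The Fanconi genes comprised Fanca and Fancc, subunits of the core ubiquitin ligase, Fancm, its DNA-binding helicase, and Fancd2 and Fanci, the clamp the ligase modifies. Their differences ran from 0.01 (Fancd2) to 0.32 (Fanci), and 0 of 5 passed even the unadjusted threshold. Fancd2 turned negative under quantile normalization, median centring and array weights, and without shRNA OS 1 (-0.24), Cre:lox OS 3 (-0.18) or Cre:lox OS 4 (-0.01). Fancm turned to -0.03 without shRNA OS 1 or shRNA OS 4 and to -0.01 without Cre:lox OS 2, and Fancc to -0.03 without Cre:lox OS 3. Fanci was 8.30, 7.36, 8.18 and 7.38 in shRNA OS 1 to 4 and 7.53, 7.52, 7.18 and 7.72 in Cre:lox OS 1 to 4, so that only shRNA OS 1 and 3 exceeded the Cre:lox OS tumours. Fancc had the largest spread of the 29 genes, with an SD of 0.55 over the 8 tumours, from 6.17 in Cre:lox OS 3 to 7.87 in shRNA OS 4.

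Among the RecQ helicases, Blm, whose protein dissolves double Holliday junctions, showed the largest difference. It was 8.85, 8.17, 8.64 and 7.94 in shRNA OS 1 to 4 and 8.05, 7.64, 7.36 and 7.56 in Cre:lox OS 1 to 4. The models overlapped only through shRNA OS 4, which lay below Cre:lox OS 1. The difference was 0.75 (SE 0.23, 95% interval 0.24 to 1.26; unadjusted p 0.0089, adjusted p 0.32), and 0.82 without shRNA OS 2 (adjusted p 0.36).

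Recql4, a helicase of replication initiation, was 8.40, 7.19, 6.93 and 7.69 in shRNA OS 1 to 4 and 7.22, 7.22, 7.31 and 7.11 in Cre:lox OS 1 to 4. The tumours shRNA OS 1 and 4 lay above every Cre:lox OS tumour, and shRNA OS 3 lay below them all. The SD was 0.64 in shRNA OS and 0.08 in Cre:lox OS, and the difference was 0.34 (SE 0.28, adjusted p 0.78). Without shRNA OS 1 it was 0.05, so it rested largely on that tumour.

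Wrn, a helicase and exonuclease, was 7.83, 8.27, 8.28 and 8.60 in shRNA OS 1 to 4 and 8.09, 8.39, 7.59 and 8.60 in Cre:lox OS 1 to 4. The models overlapped over nearly their whole range, with a difference of 0.08 (SE 0.24) that turned to -0.04 without shRNA OS 4 and to -0.11 without Cre:lox OS 3. Recql5, which restrains recombination, was 7.61, 7.56, 7.46 and 7.71 in shRNA OS 1 to 4 and 7.55, 7.45, 7.52 and 7.39 in Cre:lox OS 1 to 4. It had the smallest SD of the 29 genes (0.10 over the 8 tumours) and a difference of 0.11 (SE 0.12, adjusted p 0.84).

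**Figure D2:**
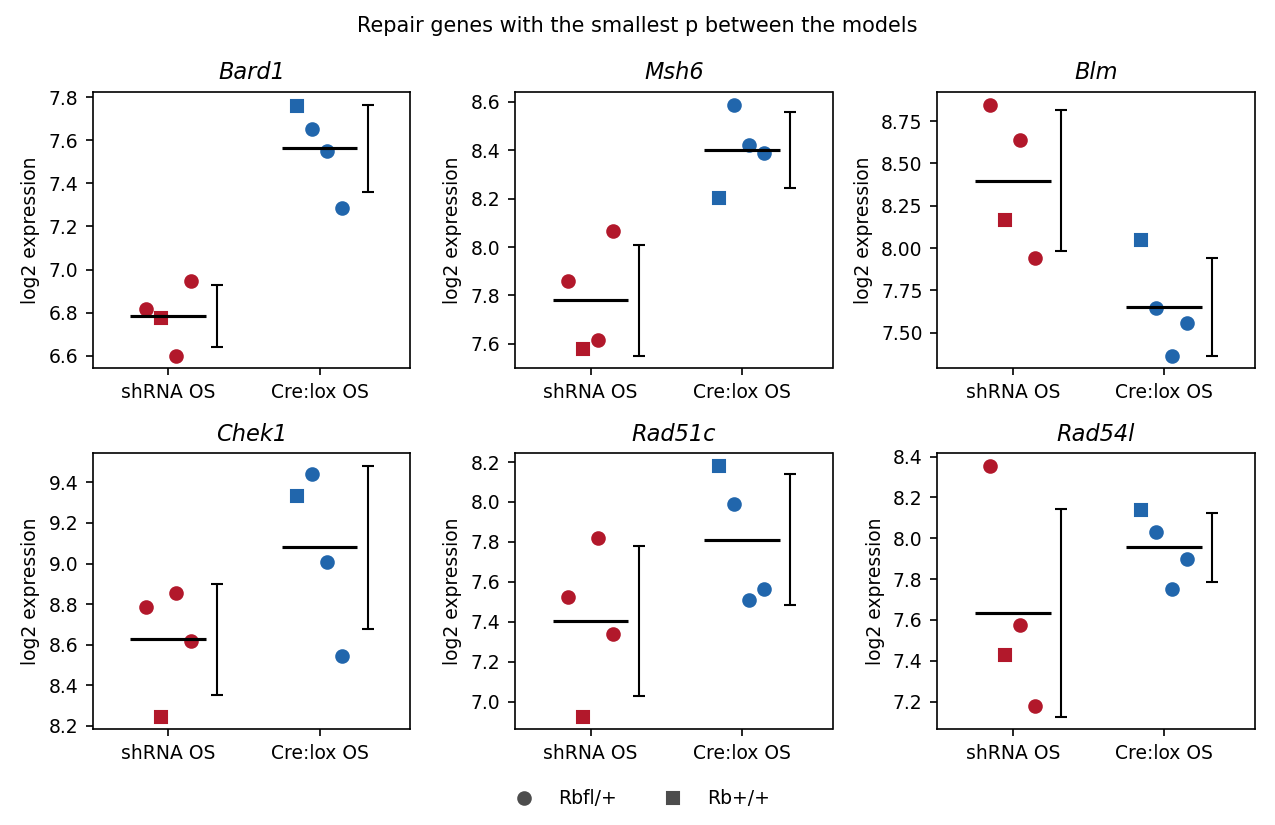
Log2 expression (vertical axis, a separate scale in each panel) of the 6 repair genes with the smallest p between the models, in the 4 shRNA OS (red) and 4 Cre:lox OS (blue) tumours. Points are tumours, squares the Rb+/+ tumours, the horizontal line the mean and the bar 1 SD to each side. Bard1 and Msh6 show no overlap, Blm overlaps through 1 tumour of each model, and Chek1, Rad51c and Rad54l overlap more widely.

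Rb genotype was compared over both models with the model as a covariate, 6 Rbfl/+ against 2 Rb+/+ tumours. Here 0 repair genes and 0 of all genes (0.0%) passed the adjusted threshold, and at an unadjusted p under 0.05 there was 1 repair gene, Brca2, beside 4.73% of all genes (3.09% in the same direction, higher in Rbfl/+). The difference (Rbfl/+ minus Rb+/+) was below 0 for 12 and above 0 for 17 of the 29, where 53.0% of all genes were below 0, and 24 of the 29 were smaller than 0.25 in size. Brca2 was 7.42 and 8.16 in the Rb+/+ tumours and 8.20, 8.78, 8.41, 8.47, 8.03 and 8.38 in the Rbfl/+ tumours. The Rb+/+ tumour of the Cre:lox OS model lay within the Rbfl/+ range and that of the shRNA OS model below it. The difference was 0.59 (SE 0.25, unadjusted p 0.044, adjusted p 0.84), and 0.14 without shRNA OS 2.

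The 2 Rb+/+ tumours lay on opposite sides of the mean for many repair genes. Of the 29, 25 lay below their own mean in shRNA OS 2 and 23 above it in Cre:lox OS 1. Over all genes, 46.5% lay above their own mean in shRNA OS 2 and 55.0% in Cre:lox OS 1. Cre:lox OS 1 was also the only scapular tumour, and shRNA OS 2 was the array that stood apart. Without shRNA OS 2 the fitted Rb difference rests on the Cre:lox OS tumours alone and was below 0 for 23 of 29 repair genes, against 56.1% of all genes. Without Cre:lox OS 1 it rests on the shRNA OS tumours alone and was below 0 for 1 of 29, against 46.0% of all genes. The interaction of model and Rb genotype, which sets the Rb difference in shRNA OS against that in Cre:lox OS, was positive for 28 of the 29, Wrn being the exception, while 43.6% of all genes were below 0. Its median was 0.54 for the repair genes and 0.08 for all genes. Adjusted, 0 repair genes passed (0.0% of all genes), and unadjusted 4 did, Atm, Rad51c, Chek2 and Rad50, all positive, beside 9.12% of all genes (4.58% positive).

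Atm shows the pattern. In shRNA OS it was 7.90 in the Rb+/+ tumour and 8.80, 8.63 and 8.58 in the Rbfl/+ tumours, whereas in Cre:lox OS it was 8.81 in the Rb+/+ tumour and 8.42, 8.0 and 8.42 in the Rbfl/+ tumours. The Rb+/+ tumour was thus the lowest in 1 model and the highest in the other. The interaction was 1.31 (unadjusted p 0.0063, adjusted p 0.48). Since each model held 1 Rb+/+ tumour, this term cannot be told apart from those 2 tumours, and it has no value without either of them.

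Over the 8 tumours the median SD was 0.35 for the repair genes and 0.27 for all genes, and 20 of the 29 lay above the median of all genes. The tumour with the lowest value was shRNA OS 2 for 10 repair genes (34.5%, against 23.2% of all genes) and Cre:lox OS 3 for 8 (27.6%, against 10.8%). The highest value was in Cre:lox OS 1 for 10 (34.5%, against 9.11%) and in shRNA OS 1 for 8 (27.6%, against 10.9%). The interquartile range of all values on an array was narrowest on shRNA OS 2 (2.59) and Cre:lox OS 3 (2.79). On the other arrays it ran from 2.95 to 3.19. The part of this narrower range in the counts of lowest values was not tested.

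Neither shRNA OS 1 nor Cre:lox OS 1 was the lowest tumour for any of the 29 genes, against 8.34% and 4.48% of all genes. Neither shRNA OS 2 nor Cre:lox OS 3 was the highest for any, against 21.4% and 12.8% of all genes. Rad51c, Exo1, Atm and Chek2 were lowest in shRNA OS 2 and highest in Cre:lox OS 1, a combination found in 2.53% of all genes. The median deviation of the repair genes from their own means was 0.12 in shRNA OS 1, -0.22 in shRNA OS 2, 0.16 in Cre:lox OS 1, 0.17 in Cre:lox OS 2 and -0.12 in Cre:lox OS 3. With shRNA OS 2 left out, Cre:lox OS 3 was the lowest tumour for 12 of the 29 (41.4%, against 16.6% of all genes). The counts of highest values were then 10 in Cre:lox OS 1 and 8 in shRNA OS 1, as before, against 10.7% and 12.5% of all genes.

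**Figure D3:**
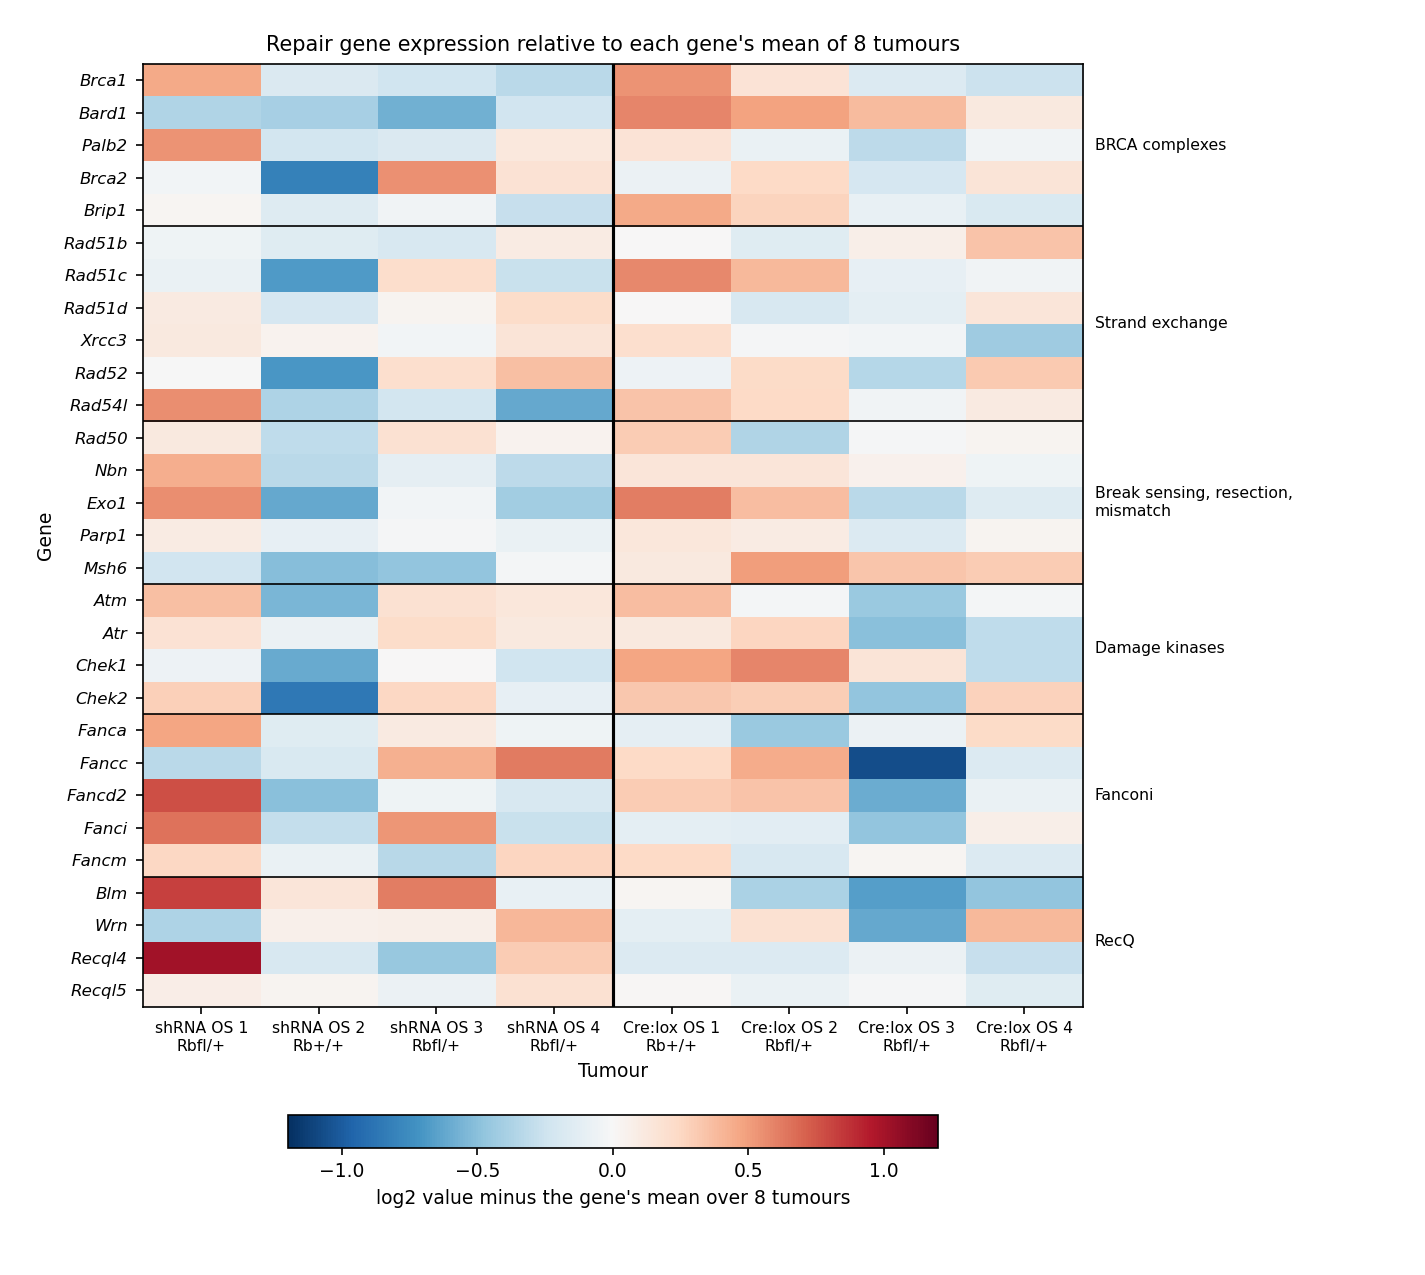
Log2 expression of the 29 repair genes (rows, grouped by role) in the 8 tumours (columns), as the deviation from each gene's mean, red above and blue below. The columns of shRNA OS 1 and Cre:lox OS 1 are mostly red and those of shRNA OS 2 and Cre:lox OS 3 mostly blue, whereas Bard1, Msh6 and Blm differ between the columns of the models.

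The order of the tumours was set beside that of 20 mitosis genes, none of them a repair gene listed here, a relation chosen after the tumour values had been seen. The mitosis score, the mean deviation of those genes, was 0.54, -0.50, -0.09 and -0.45 in shRNA OS 1 to 4 and 0.41, 0.34, -0.22 and -0.04 in Cre:lox OS 1 to 4. Pearson's r with the score over the 8 tumours was positive for 26 of the 29 repair genes and had a median of 0.39, against 0.04 for all 19938 genes. It was above 0.7 for 9 repair genes (6.48% of all genes). An exact permutation test over the 40320 orders of the tumours gave an unadjusted p under 0.05 for the same number (10.5% of all genes, 6.4% with a positive r), and 0 repair genes passed after adjustment over all genes (0.0% of all genes). Cell division itself was not measured.

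The highest r was that of Exo1, whose level was 8.47, 7.29, 7.88 and 7.49 in shRNA OS 1 to 4 and 8.53, 8.28, 7.59 and 7.75 in Cre:lox OS 1 to 4. It was high in shRNA OS 1 and Cre:lox OS 1 and 2 and low in shRNA OS 2 and 4. Its r was 0.98 (exact p 0.00015, adjusted p 0.17) and Spearman's rho 0.95 (exact p 0.0011, adjusted p 0.22), and r was 0.97 without the 2 tumours farthest from the median score, shRNA OS 1 and Cre:lox OS 1. For Rad54l, r was 0.94 (exact p 0.00089, adjusted p 0.24), rho 0.95 (exact p 0.0011) and r without those tumours 0.87.

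Nbn reached an r of 0.93, Fancd2 of 0.90, Parp1 and Brca1 of 0.88, Brip1 of 0.77, Chek2 of 0.76 and Rad51c of 0.73. In each of these 7, r stayed above 0.7 without those 2 tumours, from 0.75 (Chek2 and Brca1) to 0.90 (Rad51c). These genes come from every role but the listed RecQ helicases. For those, r over all tumours was 0.35 (Recql4), 0.28 (Blm), -0.21 (Recql5) and -0.29 (Wrn). Without shRNA OS 1 and Cre:lox OS 1 it was -0.43 (Recql4), -0.26 (Blm), -0.72 (Recql5) and 0.07 (Wrn). Within the models (4 tumours each), however, Blm had an r of 0.90 in shRNA OS and 0.87 in Cre:lox OS. In the same order, r was 0.68 and -0.19 for Recql4, -0.13 and 0.25 for Recql5, and -0.88 and 0.38 for Wrn. For 11 of the 29 genes r lay within 0.3 of 0, among them Rad51b, Rad51d, Xrcc3, Rad52, Fanca, Fancc and Fancm. Bard1 and Msh6, in which the models did not overlap, had an r of 0.39 and 0.30. With the score as a covariate, the model difference was -0.76 for Bard1 (adjusted p 0.26), -0.62 for Msh6 (adjusted p 0.39) and 0.94 for Blm (adjusted p 0.19).

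**Figure D4:**
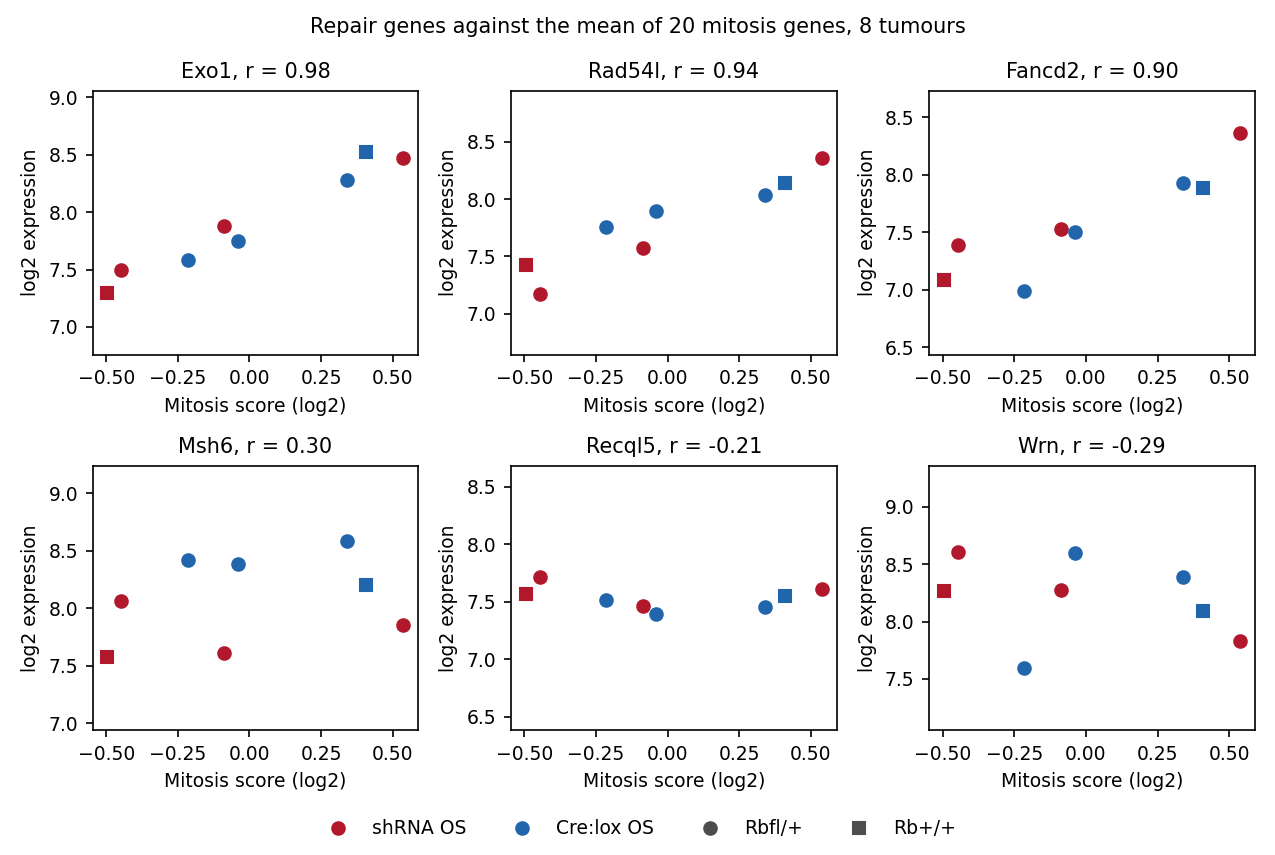
Log2 expression of 6 repair genes (vertical axes of equal length) against the mitosis score (horizontal axis, the mean log2 deviation of 20 mitosis genes) in the 8 tumours, shRNA OS in red, Cre:lox OS in blue, Rb+/+ as squares. Exo1, Rad54l and Fancd2 rise with the score (r 0.98, 0.94 and 0.90), whereas Msh6, Recql5 and Wrn show weak relations over the 8 tumours (r 0.30, -0.21 and -0.29).

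Neighbouring genes were examined on the order of the reference GRCm38.p6, taking the 5 nearest measured genes on each side. Around Recql4 on chromosome 15, 9 of 10 neighbours had a higher mean in shRNA OS, while 48.1% of all genes had a lower one. The median difference of these neighbours was 0.29, and 0 of 10 reached an unadjusted p under 0.05 (9.63% of all genes). The median deviation of the 10 neighbours was 0.34 in shRNA OS 1 and 0.69 in shRNA OS 4, and between -0.27 and -0.01 in the other 6 tumours. Recql4 itself deviated by 1.01 and 0.30 in those 2 tumours. Arhgap39 deviated by 1.24 in shRNA OS 1 and 1.28 in shRNA OS 4, Lrrc14, adjacent to Recql4 among the measured genes, by 0.94 and 1.11, and Zfp251 by 0.98 and -0.08. The tumours in which Recql4 was high were thus those in which its neighbours were high.

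Around Blm on chromosome 7, 8 of 10 neighbours were higher in shRNA OS, with a median difference of 0.36. Of them 4, Hddc3, Crtc3, Zscan2 and Nmb, reached an unadjusted p under 0.05, as did 9.63% of all genes. So did 3 of the 10 neighbours each of Exo1 on chromosome 1 and Fanci, which like Blm is on chromosome 7. Around Fanca, Fanci and Recql5, 8 of 10 neighbours were likewise higher in shRNA OS, and around Exo1 9 of 10 were lower. The median deviation of the Blm neighbours was highest in shRNA OS 3 at 0.42 and lowest in Cre:lox OS 3 at -0.41. Blm itself deviated by 0.61 and -0.66 in these 2 tumours, although its highest deviation, 0.82, was in shRNA OS 1, where that of the neighbours was 0.15. Around Bard1 on chromosome 1 and Msh6 on chromosome 17 the median difference of the 10 neighbours was -0.03 and -0.04, beside -0.78 and -0.62 for the genes themselves. The neighbours of Blm, Bard1 and Msh6 were chosen after their values had been seen. DNA copy number is not analysed here, and its part in these values was not tested.

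**Figure D5:**
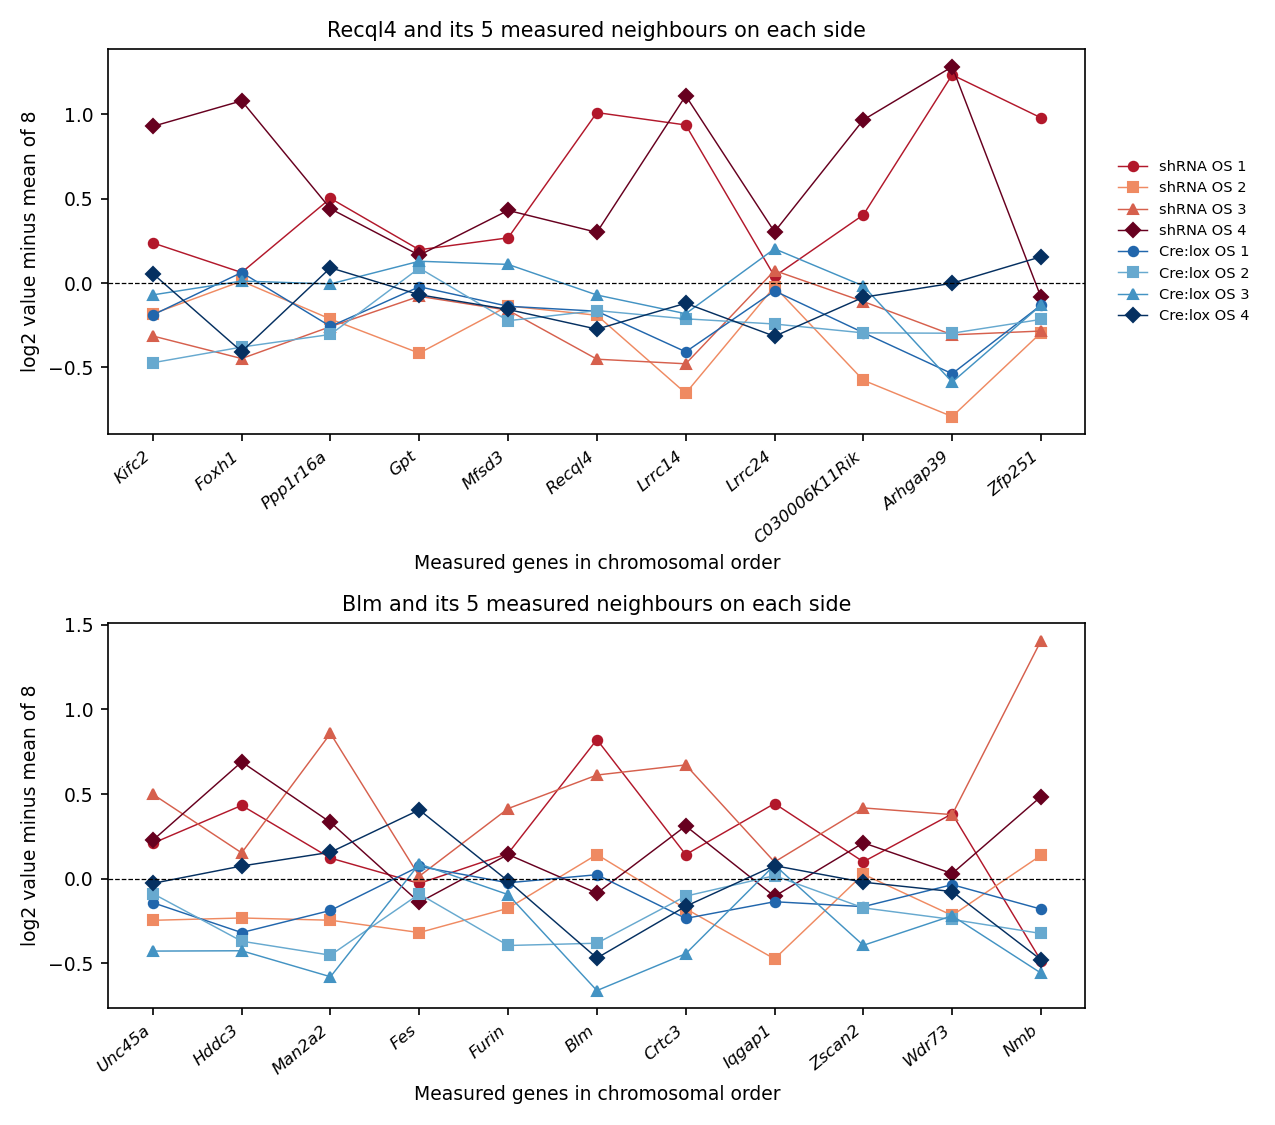
Deviation of log2 expression from each gene's mean of 8 tumours (vertical axis) for Recql4 and Blm and their 5 nearest measured genes on each side, in chromosomal order and evenly spaced, with 1 line per tumour. Around Recql4 the lines of shRNA OS 1 and 4 run above the others at most genes (median neighbour deviation 0.34 and 0.69), and around Blm that of shRNA OS 3 is the upper one at most genes (0.42).

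The remaining repair machinery was read through 9 lists of 118 further measured genes. Of these, 82 had a lower and 36 a higher mean in shRNA OS, against 48.1% of all genes below 0. Their median difference was -0.09, where it was 0.01 over all genes and -0.08 over all genes above the median level. Among the 118, 10 lower and 4 higher genes had an unadjusted p under 0.05 (6.02% and 3.61% of all genes). The adjusted threshold was passed by 0 of them, and 8 showed no overlap between the models, against 5.44% of all genes. Without shRNA OS 2, 69 of the 118 were lower, with a median difference of -0.06, where 51.8% of all genes were. Homologous recombination genes other than those above were lower for 15 of 23, led by Rpa1 (-0.37), the large subunit of the single-strand binding protein, and Mre11a (-0.41), the nuclease of the MRN complex. The other Fanconi genes were lower for 8 of 14, and their leading genes, the nuclease Fan1 (0.55) and the core subunit Fancf (0.48), were higher in shRNA OS. Of the other RecQ and partner genes 4 of 6 were lower, led by Wrnip1 (-0.46) and Recql (-0.26), itself a RecQ helicase.

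End joining genes, which rejoin broken ends without a template, had a lower mean in shRNA OS for 9 of 9, with a median difference of -0.36, and without shRNA OS 2 again for 9 of 9, with a median of -0.22. Lig4, the ligase of this pathway, was 7.79, 7.57, 7.70 and 7.81 in shRNA OS 1 to 4 and 9.08, 8.23, 8.04 and 8.38 in Cre:lox OS 1 to 4, a difference of -0.72 (SE 0.21, adjusted p 0.31). Its models did not overlap, nor did those of Paxx, a Ku-binding factor (-0.44, adjusted p 0.46). The mean of the list deviated by -0.55 in shRNA OS 2, the lowest tumour, and by 0.37 in Cre:lox OS 4, the highest.

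Translesion synthesis genes were lower for 8 of 9, led by Pcna (-0.64), the sliding clamp, and the polymerase Polk (-0.61). Base excision and single-strand break repair genes were lower for 14 of 18, led by the flap nuclease Fen1 (-0.56) and Parp3 (-0.31). Nucleotide excision repair genes were split 7 and 7, led by the damage sensor Rad23b (-0.42) and the helicase Ercc2 (0.58), in both of which the models did not overlap. Damage signalling genes were lower for 13 of 19 (9 of 19 without shRNA OS 2), with Atmin at 0.35 and Trp53bp1, which steers breaks towards end joining, at -0.36. Mismatch repair genes other than Msh6 were lower for 4 of 6, with Mlh3 at -0.39 and Msh5 at 0.15. Each of these genes had an adjusted p above the threshold, the smallest being 0.27 for Rad23b.

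DNA replication and E2F target genes had a lower mean in shRNA OS for 22 of 25, with a median difference of -0.24 and 0 past the adjusted threshold. Pola1, a subunit of the priming polymerase, differed by -0.65 (adjusted p 0.23) and Mcm3, of the replicative helicase, by -0.78 (adjusted p 0.31), and neither overlapped between the models. Of the 20 mitosis genes 18 were lower, with a median of -0.28, 0 genes without overlap and 0 past either threshold, led by the kinetochore genes Ndc80 (-0.44) and Cenpf (-0.43). Without shRNA OS 2, 16 of the 25 replication genes and 13 of the 20 mitosis genes were lower. The part of these genes in the differences of the repair genes was not tested beyond the fit with the mitosis score as a covariate.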

How the data were processed

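Expression was measured in 8 primary tumours on 1-colour arrays, with RNA extracted in Trizol and purified on RNeasy columns, per the labels' protocols. The authors deposited log2 values; RMA and the build mm9 are named in the submitters' processing notes. The version is not given in the sources used here. Of 35556 probe sets, 21789 had 1 gene symbol, 1621 several and 12146 none in the platform annotation, and only the first were used. The probe set with the highest mean represented a gene.

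The fits used limma 3.58.1 (lmFit, eBayes) in R 4.3.3 over 19938 genes without a filter on dim genes, adjusted by Benjamini-Hochberg. The models were compared without covariates, Rb genotype with the model as covariate, and their interaction with both as terms. P-values measure the spread between tumours, and 8 arrays limit the precision. Correlations were computed in Python 3.11.15 with an exact 2-sided permutation test. Tested on simulated data with these means and spreads, the comparison of models over 19938 genes found 59 of 100 genes raised or lowered 2-fold, 88 of 100 at 4-fold, and called 8 unchanged genes. The simulated noise was normal, independent between genes and equally wide on all arrays. No simulated array stood apart as shRNA OS 2 did, so these counts hold only for that setting.

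The repair genes and all gene lists were chosen with earlier results of these data known. Genes given with their value in every tumour were the listed RecQ helicases, those without overlap between models, those with a tumour set apart in its model and the 6 of smallest p between models. Brca1, Fanci, Atm, Exo1 and, under Rb genotype, Brca2 were added after their values were seen. Further lists were represented by their 2 genes of smallest p. The mitosis score, its use as a covariate and its alternatives were also chosen after seeing the data. Between the models, marker lists of osteoclast, T and B lymphocyte, erythroid, endothelial and chondrocyte genes had differences of both signs and 0 genes past the threshold. The mean of the osteoclast list deviated by -1.88 in shRNA OS 1, -0.80 in Cre:lox OS 3 and -0.92 in Cre:lox OS 4. In the other tumours it deviated by 0.42 to 1.03. By Rb genotype, 7 of 8 osteoclast genes (median -0.98), 7 of 7 osteoblast and 7 of 7 endothelial genes were lower in Rbfl/+. Macrophage genes were higher for 8 of 9, and 0 genes of these lists passed the threshold. The part of these cells was not tested. RefSeq gene order and promoters are of GRCm38.p6, another build than mm9, so no coordinate of the arrays was used.

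The alternatives tried were array weights, quantile normalization, centring on the array median, leaving out dim genes (below the 25th percentile or the median level), averaging probe sets, eBayes with trend and robust, covariates for Rb genotype or site or none, Rbfl/+ or tibial tumours alone, and leaving out each tumour.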

Additional observations from a re-analysis of the deposited data

Results flagged for a closer look

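Within the 4 Cre:lox OS tumours, Chek2, the checkpoint kinase activated by ATM, had 1 tumour far from the other three. Cre:lox OS 3 was at 7.28 and the others between 8.03 and 8.08, so that the gap took 0.934 of the range, above Dixon's 95% critical value for 4 tumours. It was the only such gap in 58 tested (29 genes in 2 models), where chance alone gives about 1 in 20. Of all genes, 5.53% had such a gap in Cre:lox OS and 7.14% in shRNA OS. The 10 nearest measured neighbours of Chek2 on chromosome 5 had a median deviation of -0.19 in Cre:lox OS 3, beside -0.48 for Chek2 itself.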

How the results depend on the processing

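Under every alternative run, 0 repair genes passed the adjusted threshold in any comparison, Msh6 and Blm kept their directions between the models, and so did Bard1 wherever it was tested (it is not among the genes above the median level). At an unadjusted p under 0.05 the models gave 3 to 5 repair genes when each tumour was left out in turn and 6 with array weights, under which the adjusted p of Bard1 was 0.064. Leaving out each tumour put 11 to 19 of the 29 below 0 between the models, Rbfl/+ tumours alone 8, and the mitosis score as a covariate 9. For Rb genotype, leaving out each tumour gave 0 to 4 genes at an unadjusted p under 0.05 and 1 to 23 below 0, median centring put 6 below 0, and array weights, like model and site as covariates, gave 2 at an unadjusted p under 0.05. The interaction was below 0 for 2 genes after quantile normalization. Wrn reversed between the models without shRNA OS 4 (-0.04) and without Cre:lox OS 3 (-0.11), in a range of -0.11 to 0.22, and the r of Recql5 with the mitosis score ran from -0.49 to 0.20 over the same omissions, the latter without shRNA OS 4. The causes were not tested beyond the change of samples itself. For the mitosis score, 7 to 11 genes had an r over 0.7 when each tumour was left out, 6 after quantile normalization and 12 with model means removed, and 7 to 10 had an unadjusted exact permutation p under 0.05. The 4 genes past the adjusted threshold between the models became 0 to 42 when each tumour was left out, 42 being the count without shRNA OS 1, and 19 with array weights. Quantile normalization gave 8 and only genes above the median level 0. No paired analysis was possible because the labels give the tumours no shared numbers. Wide intervals, such as that of Fancc (-0.48 to 1.04), limit what 4 tumours a model can show.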
